A study of Mus musculus with 8 samples.

Results

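Transcripts of 10 histone lysine demethylases were followed in mouse embryonic fibroblasts (MEFs) during doxycycline-induced reprogramming. The genes were taken from a list of symbols drawn up with earlier results of these data known, and the list sets no threshold on a measured value. They comprise Kdm4a, Kdm4b, Kdm4c and Kdm4d of the KDM4 family, the stated targets of the inhibitor NSC636819 and their relatives, Kdm2a and Kdm2b, and Kdm3a, Kdm1a, Kdm6b and Kdm5b. All 10 were among the 55487 genes of the count table, and all 10 were among the 19392 genes with enough reads to be tested. The cells were MEFs 61.3 and 61.5, prepared from separate embryos, and carried Rosa26-rtTA +/T and Tet-O-OSKM +/T on a C57BL/6 background, so that doxycycline switches on a cassette of Oct4, Sox2, Klf4 and Myc. Each MEF gave 1 polyadenylated RNA library for each of 4 treatments of 72 h, all with doxycycline in iPS cell medium. The sample labels give the doxycycline as 1 µg/mL, whereas the series text and the methods give 1 mg/mL, and which was used could not be settled here. These were 10 µM NSC636819, an inhibitor of KDM4A and KDM4B (NSC); 100 µM S-adenosylmethionine (SAM); 2 µM vitamin B12 with 2 µM PF-9366, which blocks MAT2A, the synthase that makes SAM (B12 + MAT2Ai); and 2 µM vitamin B12 alone (B12), which served as the reference. Cells given doxycycline with no compound were not analysed here, so every value below describes cells in which the cassette was on. No B12 was added with NSC or SAM. A difference of either from B12 thus joins the compound with the lack of added B12, and these cannot be told apart. Against B12 + MAT2Ai the lack of PF-9366 is joined to them too. A gene said to rise or fall is higher or lower than in the treatment compared.

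Histone lysine demethylases remove methyl groups that methyltransferases place on histone tails. KDM1A is a flavin-dependent amine oxidase, whereas the JmjC enzymes of the KDM2 to KDM6 families use iron, oxygen and 2-oxoglutarate. KDM4A, KDM4B and KDM4C act on H3K9 and H3K36 trimethylation, and H3K9 methylation is a known barrier to the reprogramming of fibroblasts. The libraries measured transcripts, not enzyme activity or histone marks.

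The 4 KDM4 genes descend from a common ancestor, so their coding sequences were compared to see how far reads could be confused between them. In the longest annotated coding sequences of GENCODE M21 (GRCm38), the 6 pairs were 65.6% to 68.7% identical over their aligned bases, and the longest identical run in any pair was 26 bases, between Kdm4c and Kdm4d. The reads that the methods give for these libraries were longer than that run. A stretch that lies in the JmjC catalytic domain is given for all 4 to show how far they differ where they are much alike. It covers chr4:118164428-118164474 (minus strand) in Kdm4a, chr17:56375896-56375942 (plus) in Kdm4b, chr4:74315554-74315600 (plus) in Kdm4c and chr9:14463692-14463738 (minus) in Kdm4d, each within 1 coding exon. Capitals mark the 32 of 47 bases that all 4 genes share.
Kdm4a: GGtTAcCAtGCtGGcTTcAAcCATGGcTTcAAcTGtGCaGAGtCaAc
Kdm4b: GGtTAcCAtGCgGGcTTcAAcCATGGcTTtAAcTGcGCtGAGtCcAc
Kdm4c: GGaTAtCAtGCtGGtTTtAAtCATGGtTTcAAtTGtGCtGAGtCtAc
Kdm4d: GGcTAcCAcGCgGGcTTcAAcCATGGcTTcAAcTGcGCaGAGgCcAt
Bases that differ were scattered through the whole stretch. Kdm4d had a coding sequence of 1530 bases, against 3162 to 3258 bases in the other KDM4 genes, and its protein lacks the PHD and Tudor domains with which the other members read histone tails. Kdm2a and Kdm2b were 68.5% identical over aligned coding bases, with a longest shared run of 25 bases. How reads mapping to several places were counted is not given in the sources used here.

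Upstream sequence was printed for the 2 members at the ends of the KDM4 range, since Kdm4a was the highest and Kdm4d the lowest of the family in these cells. Both are the 250 bases before the start site in the RefSeq promoter table (GRCm38.p6), read towards the gene, with CG dinucleotides in capitals. The Kdm4a window is chr4:118180044-118180293 and the Kdm4d window is chr9:14500483-14500732, both on the minus strand.
Kdm4a: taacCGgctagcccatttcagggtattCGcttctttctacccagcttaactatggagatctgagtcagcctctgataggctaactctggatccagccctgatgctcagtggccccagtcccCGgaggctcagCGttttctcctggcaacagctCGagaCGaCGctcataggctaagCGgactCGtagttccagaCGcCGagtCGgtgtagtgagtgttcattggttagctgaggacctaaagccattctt
Kdm4d: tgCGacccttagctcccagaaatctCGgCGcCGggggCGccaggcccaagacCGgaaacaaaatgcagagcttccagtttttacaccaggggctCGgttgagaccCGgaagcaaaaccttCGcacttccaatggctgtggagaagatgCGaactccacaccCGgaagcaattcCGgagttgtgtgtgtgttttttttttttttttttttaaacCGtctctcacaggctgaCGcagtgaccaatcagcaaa
The Kdm4a window held 12 CG dinucleotides and the Kdm4d window 14, against a median of 6 over 32851 windows of the same length. CG content was thus above that median in both windows, while the transcripts averaged 14.8 CPM (reads scaled to a fixed library size) per kilobase for Kdm4a and 0.0950 for Kdm4d.

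One further window is shown because it held the E-box CACGTG, a sequence bound by Myc, which is part of the induced cassette. Of 13 windows that matched 7 members (Kdm4a, Kdm4c, Kdm4d, Kdm2b, Kdm3a, Kdm1a and Kdm5b), only the second window of Kdm4c, chr4:74251629-74251878 on the plus strand, held this motif. Its 2 copies are in capitals.
Kdm4c: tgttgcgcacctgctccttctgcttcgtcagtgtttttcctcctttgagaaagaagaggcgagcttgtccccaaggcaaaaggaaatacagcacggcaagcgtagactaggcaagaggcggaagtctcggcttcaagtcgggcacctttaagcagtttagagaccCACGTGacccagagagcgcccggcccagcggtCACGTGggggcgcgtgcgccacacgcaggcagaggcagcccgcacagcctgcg
CACGTG reads the same on both strands and was found in 6.02% of the 32851 windows, and it contains ACGTG, a core bound by hypoxia-inducible factors, which was found in 16.6% of windows. A match is a description of the letters and not of binding. Entries for Kdm4b, Kdm2a and Kdm6b were not in the table.

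Total counts ran between 27498180 and 38565685 reads a library, and mitochondrial transcripts took 1.23% to 2.33% of them, with the highest share in NSC of MEF 61.3. All 15 fibroblast markers had reads in every library and summed to 81918 to 116484 CPM. All 16 macrophage markers also had reads in every library. Their summed level was 3981 CPM in MEF 61.3 and 2028 CPM in MEF 61.5 with NSC, 1739 and 562 CPM with SAM, 4459 and 2174 CPM with B12 + MAT2Ai, and 5029 and 2792 CPM with B12. Lyz2, the macrophage lysozyme, ranged from 316 CPM in SAM of MEF 61.5 to 3106 CPM in B12 of MEF 61.3. In bulk RNA, fewer cells of a type and less RNA per cell cannot be told apart, and the part of such cells in the demethylase values was not tested. Both MEFs expressed the Y-linked genes Ddx3y, Eif2s3y, Kdm5d and Uty, and Xist stayed at 0.0861 CPM or below in every library.

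Demethylase transcripts spanned a wide range of levels that was nearly the same in every library. Levels between genes were compared as CPM per kilobase of merged exons, averaged over the 8 libraries. Kdm1a, which removes mono- and dimethylation from H3K4, was highest at 16.1, followed by Kdm4a at 14.8 and Kdm2a at 9.03. The ranges of Kdm1a (14.9 to 17.4) and Kdm4a (13.9 to 15.6) overlapped, whereas that of Kdm2a (8.09 to 9.76), a dimethyl-H3K36 demethylase, lay below both. Kdm4b (6.92), Kdm6b (6.66), Kdm5b (5.70), Kdm4c (5.003) and Kdm3a (4.91) formed a run in which each range overlapped that of its neighbour. Kdm2a lay above this run with no overlap. Kdm2b stood below it at 2.60 and Kdm4d far below at 0.0950. The median over 19369 tested genes with a length was 3.64, so 8 of the 10 members were above it. Merged exons take in all annotated isoforms, so these lengths are upper limits for any 1 transcript.

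**Figure D1:**
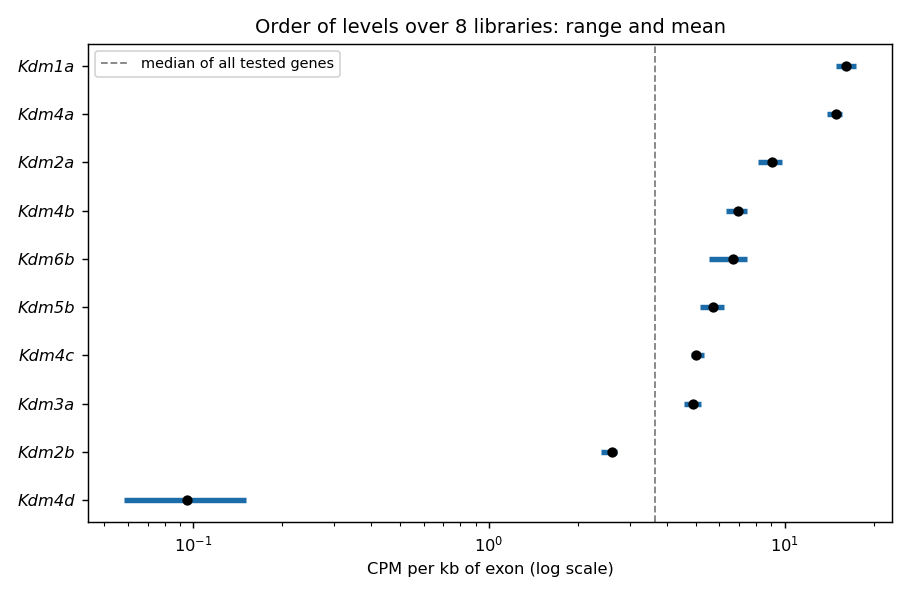
Level of each demethylase as CPM per kilobase of merged exons, on a log axis. Bars span the lowest to the highest of 8 libraries, dots mark the mean, and the dashed line is the median of all tested genes (3.64). Kdm1a and Kdm4a lead, and Kdm4d lies at 0.0950.

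Within the KDM4 family, Kdm4a supplied most of the transcript. Per kilobase, it made up 54.5% to 56.7% of the family's summed level over the 8 libraries, Kdm4b 24.3% to 26.6% and Kdm4c 17.7% to 19.4%. Kdm4d made up 0.220% to 0.577%. The stated targets of NSC636819 were therefore the 2 most abundant KDM4 transcripts in these MEFs, in every library.

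Variation among the libraries was small for all members but Kdm4d. The coefficient of variation over 8 libraries was lowest for Kdm4c (3.11%), followed by Kdm4a (3.98%) and Kdm2b (4.07%). It was highest, apart from Kdm4d (34.7%), for Kdm6b (10.7%), the H3K27 trimethyl demethylase. Among 10513 tested genes with a mean of at least 10 CPM the median was 7.35%, and 8 of the 9 members at such levels were under it.

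KDM4A is an H3K9 and H3K36 trimethyl demethylase that also binds methylated histones through Tudor domains. Kdm4a (ENSMUSG00000033326) lies at chr4:118136957-118180043 on the minus strand. It had 89.7 and 90.5 CPM in NSC of MEFs 61.3 and 61.5, 86.6 and 84.7 CPM in SAM, 80.5 and 85.2 CPM in B12 + MAT2Ai, and 82.1 and 86.6 CPM in B12. The NSC libraries were the highest pair and did not overlap B12, but the distance was small. The log2 fold change of NSC over B12 was 0.10 ± 0.06 (SE), with a 95% interval of -0.04 to 0.23 and an adjusted p of 0.562 (edgeR quasi-likelihood test). SAM over B12 gave 0.02 ± 0.06 (adjusted p = 0.893) and B12 + MAT2Ai over B12 gave -0.03 ± 0.06 (adjusted p = 0.936).

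KDM4B, the other stated target, shares the substrates of KDM4A and is induced by hypoxia in several cell types. Kdm4b (chr17:56326062-56402870, plus strand) had 36.5 and 36.2 CPM in NSC, 34.4 and 32.8 CPM in SAM, 32.5 and 30.9 CPM in B12 + MAT2Ai, and 32.9 and 34.6 CPM in B12. As for Kdm4a, both NSC libraries lay above all others, and here B12 + MAT2Ai lay below all others. NSC over B12 was 0.11 ± 0.07 on the log2 scale (95% interval -0.04 to 0.25, adjusted p = 0.558, edgeR). NSC over SAM was 0.11 ± 0.07 (interval -0.03 to 0.26, adjusted p = 0.315), and NSC over B12 + MAT2Ai was 0.20 ± 0.07 (interval 0.05 to 0.34, adjusted p = 0.125). The last had the largest distance of any Kdm4b comparison and did not pass the threshold of 0.05 after adjustment over all 19392 genes.

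KDM4C has the same substrates, and in mouse embryonic stem cells its knockdown disturbs self-renewal. Kdm4c (chr4:74242497-74405860, plus strand) had 28.9 and 28.9 CPM in NSC, 30.9 and 29.4 CPM in SAM, 28.2 and 28.02 CPM in B12 + MAT2Ai, and 29.1 and 29.6 CPM in B12. It was the steadiest member, and NSC over B12 was -0.02 ± 0.06 on the log2 scale (interval -0.16 to 0.12, adjusted p = 0.935). In SAM over B12 it was 0.04 ± 0.06 (adjusted p = 0.804). In the same comparison Myc transcripts passed, with 46.4 and 70.6 CPM in SAM, against 33.5 and 46.1 CPM in B12 (0.54 ± 0.08, adjusted p = 0.00105 by edgeR). Counts per gene could not separate transcripts of the cassette from those of the cells' own genes, here for Myc and below for Pou5f1. Whether Myc acts on Kdm4c was not tested.

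KDM4D acts on H3K9 only, and its transcript is known mainly from testis. Kdm4d (chr9:14462548-14500482, minus strand) had 11 and 7 reads in NSC, 11 and 6 in SAM, 6 and 9 in B12 + MAT2Ai, and 15 and 10 in B12. These are 0.167 to 0.430 CPM. A count of 6 has an exact Poisson 95% interval of 2.20 to 13.1 and a count of 15 one of 8.40 to 24.7, covering counting error only, and the libraries with the fewest and the most reads had overlapping intervals. NSC over B12 was -0.47 ± 0.48 on the log2 scale (interval -1.52 to 0.58, adjusted p = 0.740), and the other 2 contrasts with B12 were of like size and error, SAM at -0.49 ± 0.48 and B12 + MAT2Ai at -0.54 ± 0.50. At this depth a change of Kdm4d of 2-fold was not detectable.

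**Figure D2:**
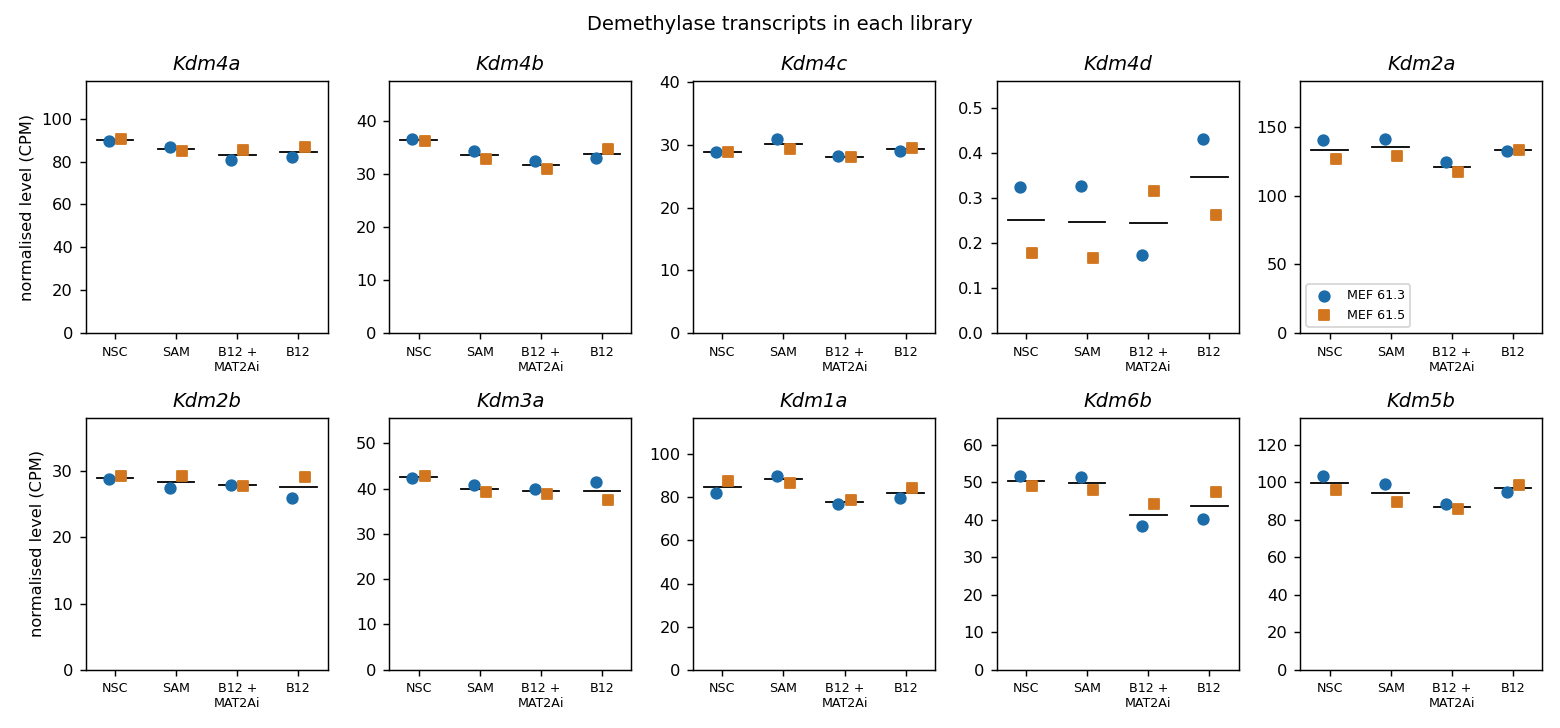
Normalised level (CPM, linear axes from 0) of each of 10 demethylases with NSC, SAM, B12 + MAT2Ai and B12. Circles are MEF 61.3, squares MEF 61.5, and bars the mean of both. Kdm4a stays between 80.5 and 90.5 CPM, Kdm6b spans 38.4 to 51.7 CPM, and Kdm4d stays at 0.430 CPM or below.

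The KDM2 enzymes remove dimethylation from H3K36 and bind unmethylated CG dinucleotides through a zinc finger. Kdm2a (chr19:4314419-4398285, minus strand) had 140 and 126 CPM in NSC, 141 and 129 CPM in SAM, 125 and 117 CPM in B12 + MAT2Ai, and 132 and 133 CPM in B12. The lower values were those of B12 + MAT2Ai, with no overlap with any other treatment. B12 + MAT2Ai over B12 was -0.14 ± 0.06 on the log2 scale (interval -0.28 to -0.0028, adjusted p = 0.601), and NSC over B12 was 0.00 ± 0.06 (interval -0.13 to 0.14, adjusted p = 0.990).

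Kdm2b (chr5:122870665-122989823, minus strand), which brings the Polycomb complex PRC1.1 to CG-rich promoters, stayed within 26.0 to 29.3 CPM. NSC over B12 was 0.08 ± 0.07 (adjusted p = 0.706), and the 2 B12 libraries, at 26.0 and 29.1 CPM, spanned nearly all of its range. Both genes have short isoforms that lack the JmjC domain, 6 and 8 protein-coding transcripts being annotated for Kdm2a and Kdm2b, and counts per gene cannot separate them. Exons of Kdm2b overlap those of Gm44574 on the same strand, so reads there are uncertain.

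Among the other members, Kdm6b had the widest spread between treatments. Kdm6b (chr11:69398508-69413675, minus strand) encodes an H3K27 trimethyl demethylase that is induced by inflammatory signals in macrophages. It had 51.7 and 49.0 CPM in NSC, 51.5 and 47.9 CPM in SAM, 38.4 and 44.2 CPM in B12 + MAT2Ai, and 40.1 and 47.3 CPM in B12. All 4 NSC and SAM libraries lay above all 4 B12 + MAT2Ai and B12 libraries, the nearest being SAM and B12 of MEF 61.5. Against B12, NSC gave a log2 fold change of 0.21 ± 0.09 (interval 0.01 to 0.40, unadjusted p = 0.0407, adjusted p = 0.372 by edgeR) and SAM gave 0.19 ± 0.09 (adjusted p = 0.276). In MEF 61.3 the differences were 0.37 for NSC and 0.36 for SAM, and in MEF 61.5 they were 0.05 and 0.02, so MEF 61.3 supplied most of both.

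Kdm6b also came closest to the threshold against B12 + MAT2Ai. NSC over B12 + MAT2Ai was 0.29 ± 0.09 on the log2 scale (interval 0.09 to 0.49, adjusted p = 0.102, edgeR), and SAM over B12 + MAT2Ai was 0.27 ± 0.09 (interval 0.07 to 0.47, adjusted p = 0.101). Whether these 2 differences passed depended on the fit. With only the 4 libraries compared, the adjusted p was 0.0108 for NSC, in a fit that called 10.7% of all genes, and 0.00422 for SAM, in a fit that called 12.6%. With no filter on low counts they were 0.00533 (5.34% of genes called) and 0.0107 (6.70% called). Without the B12 library of MEF 61.3 or that of MEF 61.5, which are not part of these contrasts but share in the estimate of spread, they were 0.0268 and 0.0262 for NSC, with 8.30% and 8.34% of genes called, and 0.0303 and 0.0297 for SAM, with 10.8% called in each. Over the 16 alternatives the adjusted p ranged from 0.00533 to 0.596 for NSC and from 0.00422 to 0.539 for SAM. Within each MEF the summed macrophage markers were lowest in SAM, and higher in B12 + MAT2Ai and B12 than in NSC, and their part in the Kdm6b values was not tested.

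KDM5B removes methyl groups from trimethylated H3K4. Kdm5b (chr1:134560171-134635285, plus strand) had 103 and 95.9 CPM in NSC, 99.2 and 89.3 CPM in SAM, 88.2 and 85.5 CPM in B12 + MAT2Ai, and 94.6 and 98.7 CPM in B12. B12 + MAT2Ai was the lowest pair, at -0.16 ± 0.07 against B12 (interval -0.30 to -0.01, unadjusted p = 0.0375, adjusted p = 0.591). Kdm1a (chr4:136550540-136602723, minus strand) had 81.9 and 87.6 CPM in NSC, 89.99 and 86.7 CPM in SAM, 77.0 and 78.7 CPM in B12 + MAT2Ai, and 79.8 and 84.5 CPM in B12. Its mean was highest in SAM, at 0.11 ± 0.06 over B12 (adjusted p = 0.391) and 0.18 ± 0.06 over B12 + MAT2Ai (interval 0.05 to 0.32, adjusted p = 0.109). Kdm3a (chr6:71588972-71632990, minus strand), an H3K9 mono- and dimethyl demethylase and a known target of hypoxia-inducible factors, stayed within 37.5 to 42.8 CPM, with NSC over B12 at 0.11 ± 0.06 (interval -0.03 to 0.25, adjusted p = 0.521).

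By comparison, no member passed an adjusted p of 0.05 between any 2 treatments. For NSC over B12 the count was 0 of 10, while 1.91% of the 19392 tested genes passed. One member, Kdm6b, had an unadjusted p under 0.05, against 12.4% of all genes, and DESeq2, which gave no adjusted p for Kdm4d, called none of the other 9. The median log2 fold change of the members was 0.06, against 0.00 over all tested genes. In NSC, 4 members lay above B12 with no overlap (15.9% of all genes did) and 1, Kdm4c, lay below (15.1% of all genes). For the 9 members other than Kdm4d, the 95% intervals of NSC over B12 covered folds from 0.894 to 1.32, so larger changes in either direction lay outside them.

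For SAM over B12, 0 of 10 members passed, while 7.71% of all genes did, and none had an unadjusted p under 0.05, against 19.7% of all genes. The intervals of the 9 members covered folds from 0.880 to 1.31, and 2 members, Kdm1a and Kdm6b, lay above B12 with no overlap, as did 17.9% of all genes. For B12 + MAT2Ai over B12, 0 of 10 passed, while 0.0877% of all genes did, that is 17 genes. Kdm2a and Kdm5b had an unadjusted p under 0.05, against 8.12% of all genes. The median of the members was -0.08, 5 of 10 lay below B12 with no overlap (14.4% of all genes), and the intervals of the 9 covered folds from 0.811 to 1.13. By DESeq2 the count of members passing was also 0 in each of these comparisons.

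**Figure D3:**
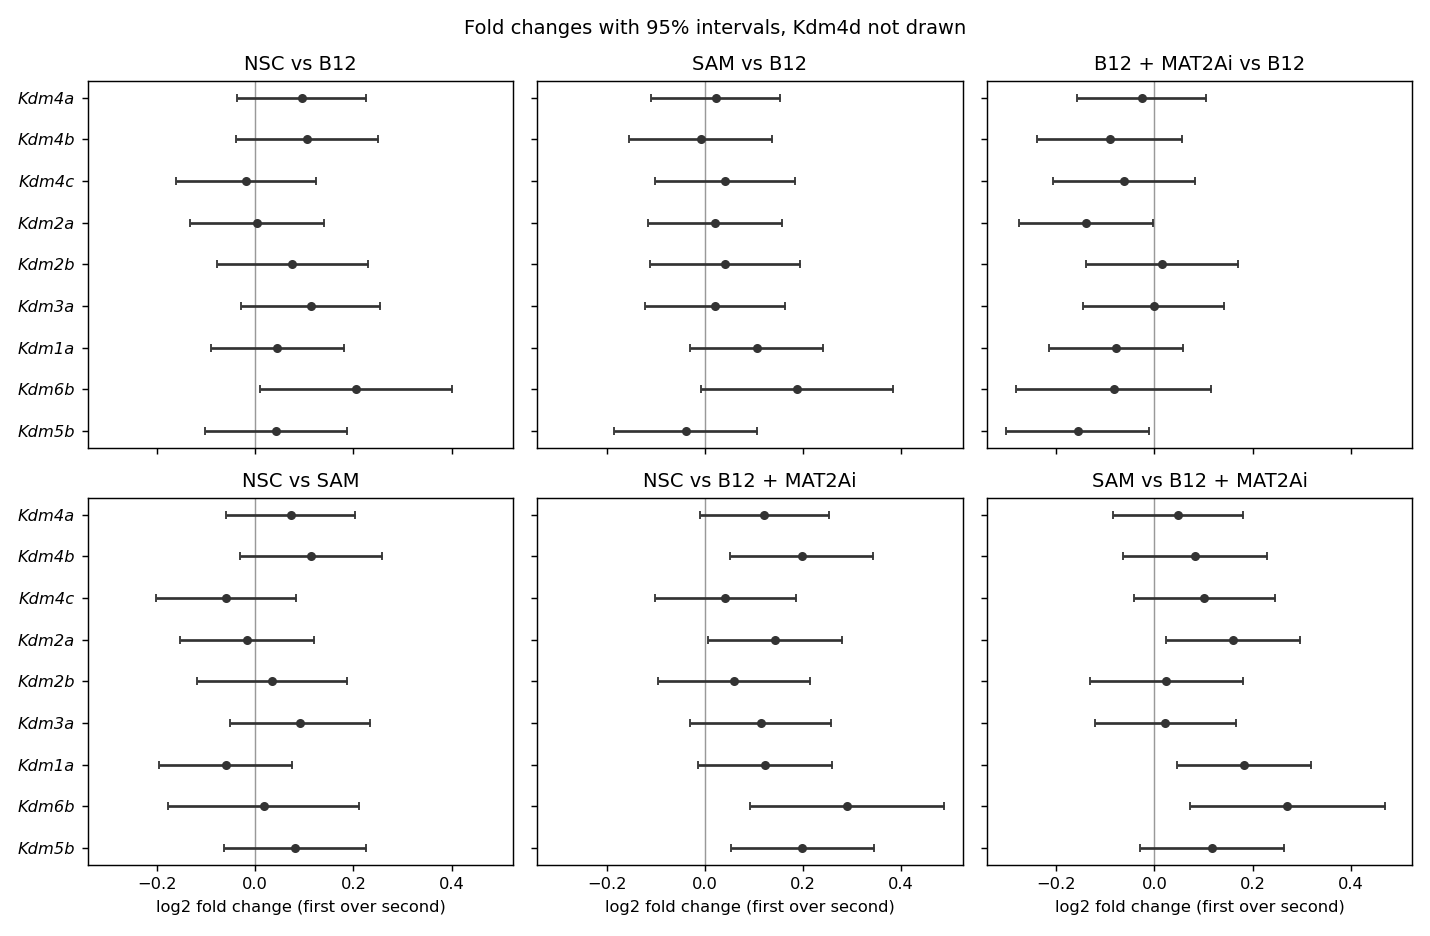
Log2 fold changes of 9 demethylases (dots) with 95% intervals (bars) in the 6 comparisons of treatments, the first named over the second. Against B12 + MAT2Ai all dots lie to the right of 0, up to 0.29 for Kdm6b with NSC. Kdm4d, whose intervals reach from -1.64 to 1.25, is left out.

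Against B12 + MAT2Ai the members leaned one way without passing. In NSC all 10 had a log2 fold change above 0, while 48.6% of all genes did. Their median was 0.12, against -0.01 over all genes. The sign was the same in both MEFs for 9 of the 10, against 66.0% of all genes. Of the 10, 9 had NSC libraries above both B12 + MAT2Ai libraries with no overlap, as did 20.9% of all genes, and 4 (Kdm4b, Kdm2a, Kdm6b and Kdm5b) had an unadjusted p under 0.05, against 20.8% of all genes. By edgeR and by DESeq2, 0 passed after adjustment, while 3.58% of all genes did by edgeR. In SAM all 10 were again above 0, with a median of 0.09 against 0.00 over all genes, of which 49.5% were above 0. The sign was the same in both MEFs for 7 of the 10, against 63.2% of all genes. Here 6 of 10 did not overlap (19.7% of all genes), 3 (Kdm2a, Kdm1a and Kdm6b) had an unadjusted p under 0.05 (21.0% of all genes), and 0 passed by edgeR or DESeq2, while 8.17% of all genes did by edgeR. These 2 comparisons share the B12 + MAT2Ai libraries and are not independent. The lean was not particular to the members. In NSC over B12 + MAT2Ai all 6 H3K4 methyltransferases were above 0 (median 0.54), as were all 5 H3K36 methyltransferases (0.27). Of 6 H3K9 methyltransferases 4 were above 0 (0.01), and of the 14 other demethylases 9 were (0.09). In SAM over B12 + MAT2Ai the medians were 0.30 for the H3K4 and 0.21 for the H3K36 methyltransferases. Transcript length moved with the lean in NSC. Over all genes with more than 8000 bases of exons the median of NSC minus B12 + MAT2Ai was 0.16 in MEF 61.3 and 0.03 in MEF 61.5, against -0.12 and -0.03 over genes of up to 2000 bases. Over genes of more than 4000 and up to 8000 bases it was 0.03 and 0.0022. Kdm4a, Kdm4b, Kdm4c, Kdm1a and Kdm6b fall in that range, and each lay above its median in both MEFs. Kdm4c was at 0.04 and 0.05, Kdm4b at 0.17 and 0.23, and Kdm6b at 0.43 and 0.15. Of the members with more than 8000 bases, Kdm2b was at 0.05 and 0.07 and Kdm3a at 0.09 and 0.14. Both lay below the median of such genes in MEF 61.3 and above it in MEF 61.5. Kdm2a, at 0.17 and 0.11, and Kdm5b, at 0.23 and 0.17, lay above it in both. For SAM minus B12 + MAT2Ai the medians were 0.08 and -0.01 for the long genes and -0.04 and 0.04 for the short ones. The part of length in the lean was not tested. Among the alternatives, Kdm4d turned negative in both by DESeq2 (-0.03 in NSC and -0.05 in SAM), without B12 + MAT2Ai of MEF 61.3 (-0.79 and -0.82) and without the NSC (-0.22) or SAM (-0.32) library of MEF 61.3, and Kdm2b in SAM did so without B12 + MAT2Ai of MEF 61.5 (-0.03). For NSC over SAM, 0 of 10 passed, while 9.52% of all genes did, none had an unadjusted p under 0.05 (24.9% of all genes), and DESeq2 called none. The members lay between -0.06 (Kdm1a) and 0.11 (Kdm4b), 3 of them above SAM with no overlap (20.0% of all genes) and 1 below (20.2%).

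**Figure D4:**
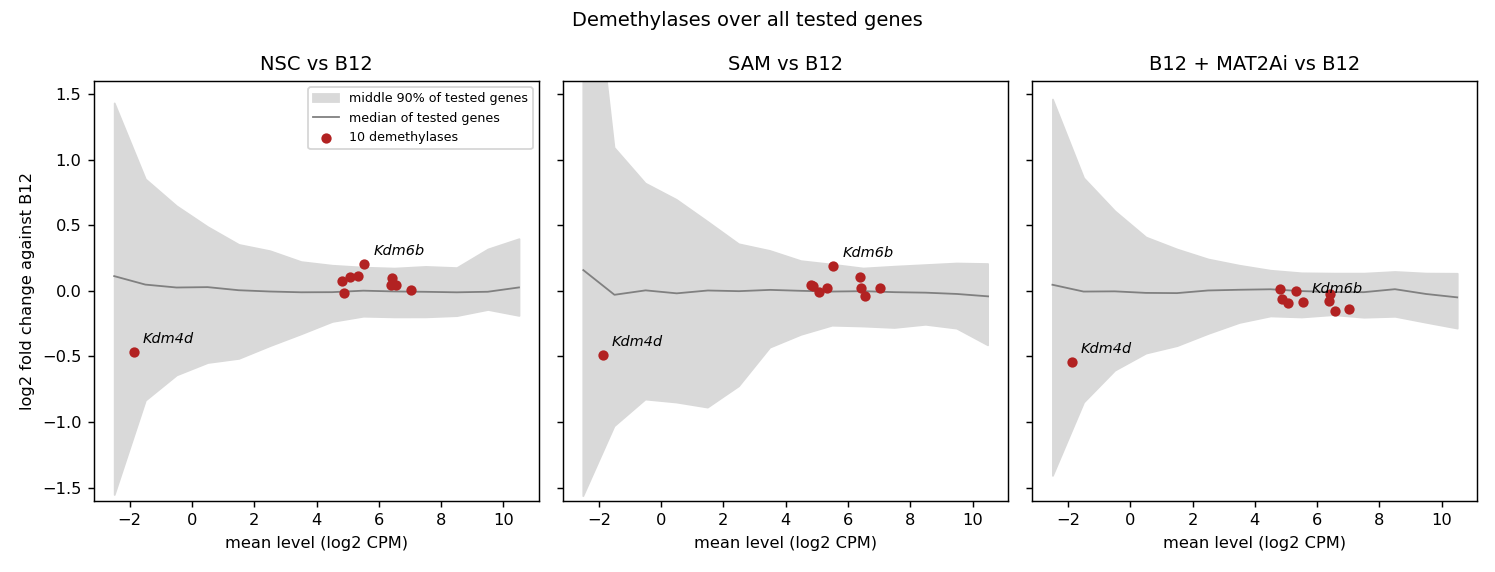
Log2 fold change against B12 by mean level (log2 CPM) for 10 demethylases (red dots), over the median (line) and the middle 90% (grey band) of tested genes in bins of level. Kdm6b lies at 0.21 with NSC, above the band, whose upper edge is 0.18 in its bin. With SAM it lies at 0.19, just inside the upper edge of 0.20. Kdm4d lies at the low end of expression, where the band is wide.

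The direction of the small differences was not the same in both MEFs for every member. Of the 10 members, 8 had NSC minus B12 of the same sign in MEFs 61.3 and 61.5, against 56.6% of all genes, and the count was 4 for SAM minus B12 (58.1% of all genes) and 7 for B12 + MAT2Ai minus B12 (60.4%). Kdm4a was higher in NSC by 0.13 in MEF 61.3 and 0.06 in MEF 61.5, and Kdm4b by 0.15 and 0.07. Kdm2a and Kdm5b differed in sign, at 0.08 and 0.13 in MEF 61.3 and -0.08 and -0.04 in MEF 61.5. Transcript length moved with these differences. Over all genes with more than 8000 bases of exons, among them Kdm2a, Kdm2b, Kdm3a and Kdm5b, the median of NSC minus B12 was 0.13 in MEF 61.3 and -0.06 in MEF 61.5. For genes of up to 2000 bases it was -0.09 and 0.00. For genes of more than 4000 and up to 8000 bases, among them Kdm4a, Kdm4b, Kdm4c, Kdm1a and Kdm6b, it was 0.03 and -0.01. For B12 + MAT2Ai minus B12 the long genes were at -0.04 and -0.09 in MEFs 61.3 and 61.5 and the short ones at 0.03 and 0.04. The part of length in the members' values was not tested.

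Between the embryos, no member passed either. Of the 10 demethylases 0 passed for MEF 61.5 over MEF 61.3, while 18.8% of all genes did, none had an unadjusted p under 0.05 (31.5% of all genes), and DESeq2 called none. The lowest adjusted p was that of Kdm2a, at -0.09 ± 0.04 (adjusted p = 0.189). None of the 10 had groups that did not overlap, against 6.24% of all genes higher and 5.33% lower. All members but Kdm4d (-0.47 ± 0.36) lay within -0.09 to 0.07, while Pou5f1, the gene of Oct4, was at 1.02 ± 0.09 (adjusted p = 2.11e-05).

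The genes most like the 2 stated targets over the 8 libraries were found by Pearson's r of log2 CPM. For Kdm4a these were Abhd18 (r = 0.982), Sfswap (0.971) and Zfp865 (0.970), and for Kdm4b they included Pex5 (0.992) and Trip10 (0.982). They were among the highest r of all tested genes over 8 libraries that share treatments and embryos, and are given as a description.

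Of the other 14 histone lysine demethylases, none passed in any comparison of treatments, and their medians lay between -0.06 and 0.09. Between embryos 1 passed, Kdm7a, an H3K9 and H3K27 dimethyl demethylase, with 17.0, 15.4, 16.7 and 19.3 CPM in MEF 61.5 (NSC, SAM, B12 + MAT2Ai and B12 in that order), against 27.5, 19.3, 17.9 and 20.5 CPM in MEF 61.3 (log2 fold change -0.31 ± 0.09, adjusted p = 0.0356). The highest of these is NSC of MEF 61.3, without which the difference was -0.17 (adjusted p = 0.163). The call was also lost without NSC of MEF 61.5 (-0.17, adjusted p = 0.165), without SAM of MEF 61.3 (adjusted p = 0.101) and without SAM of MEF 61.5 (adjusted p = 0.104). The Y-linked demethylase genes Kdm5d and Uty were expressed at 31.6 to 39.9 CPM and 23.5 to 29.7 CPM.

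Among the methyltransferases that write the marks removed by the members, single genes passed, though some lists leaned. In NSC over B12 + MAT2Ai, 6 of 6 H3K4 and 4 of 5 H3K36 methyltransferases lay above with no overlap (20.9% of all genes did). Of 6 H3K9 methyltransferases 2 lay above and 2 below. In B12 + MAT2Ai over B12, 5 of 5 H3K36 and 5 of 6 H3K4 methyltransferases lay below with no overlap (14.4% of all genes did). The H3K9 list had 1 above and 1 below. Both comparisons share the B12 + MAT2Ai libraries. Of 5 H3K36 methyltransferases none passed, and Setd2, which writes H3K36 trimethylation, had 132 and 99.6 CPM in NSC, 114 and 96.1 CPM in SAM, 97.5 and 92.8 CPM in B12 + MAT2Ai, and 109 and 112 CPM in B12 (NSC over B12 0.05 ± 0.09, adjusted p = 0.862). Of 6 H3K9 methyltransferases, 1 passed in 1 comparison. Setdb2 had 7.83 and 7.42 CPM in NSC, against 10.9 and 9.74 CPM in SAM (log2 fold change -0.43 ± 0.10, adjusted p = 0.0215), and it was called under 10 of 16 alternatives. It was lost without any 1 of the 4 libraries compared, at an adjusted p of 0.194 without NSC of MEF 61.3 and of 0.0801, 0.0761 and 0.120 without NSC of MEF 61.5, SAM of MEF 61.3 and SAM of MEF 61.5. Of 6 H3K4 methyltransferases, 2 rose in NSC over B12 + MAT2Ai. Kmt2d, a writer of enhancer H3K4 methylation, had 98.4 and 64.5 CPM in NSC, against 52.4 and 45.6 CPM in B12 + MAT2Ai (0.72 ± 0.16, adjusted p = 0.0393), and Setd1b had 67.6 and 55.8 CPM, against 45.2 and 45.6 CPM (0.44 ± 0.10, adjusted p = 0.0329). NSC of MEF 61.3 was the high library for both, and without it they were at 0.43 (adjusted p = 0.417) for Kmt2d and 0.30 (adjusted p = 0.369) for Setd1b. Without B12 + MAT2Ai of MEF 61.3 the adjusted p was 0.344 for Kmt2d and 0.370 for Setd1b, and without that of MEF 61.5 it was 0.239 and 0.185. Of 2 H3K27 methyltransferases, Ezh2, which writes the mark that KDM6B removes, rose in SAM, with 36.2 and 43.1 CPM against 31.2 and 32.3 CPM in B12 (0.32 ± 0.07, adjusted p = 0.0194, called under 11 of 16 alternatives), and was lower in NSC than in SAM (-0.38 ± 0.07, adjusted p = 0.00736). The SAM library of MEF 61.5 was its highest, and without it the differences were 0.23 (adjusted p = 0.232) and -0.29 (adjusted p = 0.124). Without B12 of MEF 61.5 the first was 0.27 (adjusted p = 0.121), and without NSC of MEF 61.3 the second was -0.37 (adjusted p = 0.0975).

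Partners of 2 members showed single changes. KDM1A works within the CoREST complex, and of 8 of its components Rcor2, a CoREST protein of embryonic cells, rose in SAM, with 13.7 and 19.7 CPM against 9.40 and 13.2 CPM in B12 (0.56 ± 0.08, adjusted p = 0.000997). Rcor2 was also higher in MEF 61.5 than in MEF 61.3 (0.49 ± 0.06, adjusted p = 0.000143), and Pou5f1 was higher in SAM over B12 (1.33 ± 0.12, adjusted p = 4.24e-05). Phf21a, the complex's reader of unmethylated H3K4, rose in NSC over B12 + MAT2Ai (0.34 ± 0.08, adjusted p = 0.0412), a call lost without any 1 of the 4 libraries compared (adjusted p 0.218 and 0.151 without NSC of MEF 61.3 and MEF 61.5, and 0.391 and 0.217 without B12 + MAT2Ai of MEF 61.3 and MEF 61.5). Of 9 components around KDM2B in PRC1.1, none passed against B12. In NSC over B12 + MAT2Ai, Bcorl1 rose (0.30 ± 0.07, adjusted p = 0.0463) and Skp1a fell (-0.25 ± 0.06, adjusted p = 0.0454), called under 8 and 9 of 16 alternatives. Both lost the call without any 1 of the NSC, SAM or B12 + MAT2Ai libraries, the adjusted p reaching 0.434 for Bcorl1 and 0.442 for Skp1a.

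Hypoxia-inducible genes were included because Kdm3a and Kdm4b are known among them. Of 12 such genes 0 passed in NSC over B12, at a median of -0.12, against 0.00 over all genes. Only 2 of the 12 were above 0, against 49.5% of all genes, and 6 had an unadjusted p under 0.05 by edgeR, against 12.4%. In SAM over B12, 1 rose and 3 fell, while 7.71% of all genes passed in either direction. Egln3, an oxygen-sensing prolyl hydroxylase, had 3.01 and 6.68 CPM in SAM, against 1.29 and 2.31 CPM in B12 (1.42 ± 0.16, adjusted p = 0.000189), while Slc2a1, a glucose transporter, was at -0.42 ± 0.07 (adjusted p = 0.00249), Pdk1 at -0.43 ± 0.08 (adjusted p = 0.00423, and 0.0592 without SAM of MEF 61.3) and Ndrg1 at -0.25 ± 0.06 (adjusted p = 0.0257, called under 7 of 16 alternatives). Ndrg1 lost the call without any 1 of 6 libraries, all but NSC and B12 of MEF 61.5, with adjusted p-values of 0.0509 to 0.141. Kdm3a and Kdm4b gave 0.02 ± 0.06 and -0.01 ± 0.07 in the same comparison. Against B12 + MAT2Ai, 3 of the 12 hypoxia-inducible genes were above 0 in NSC (48.6% of all genes were), and the median was -0.05. In NSC over B12 + MAT2Ai, Vegfa rose (0.33 ± 0.07, adjusted p = 0.0360, but 0.0732 to 0.448 without any 1 of the 4 libraries compared) and Adm fell (-0.58 ± 0.07, adjusted p = 0.00168), so their directions differed.

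**Figure D5:**
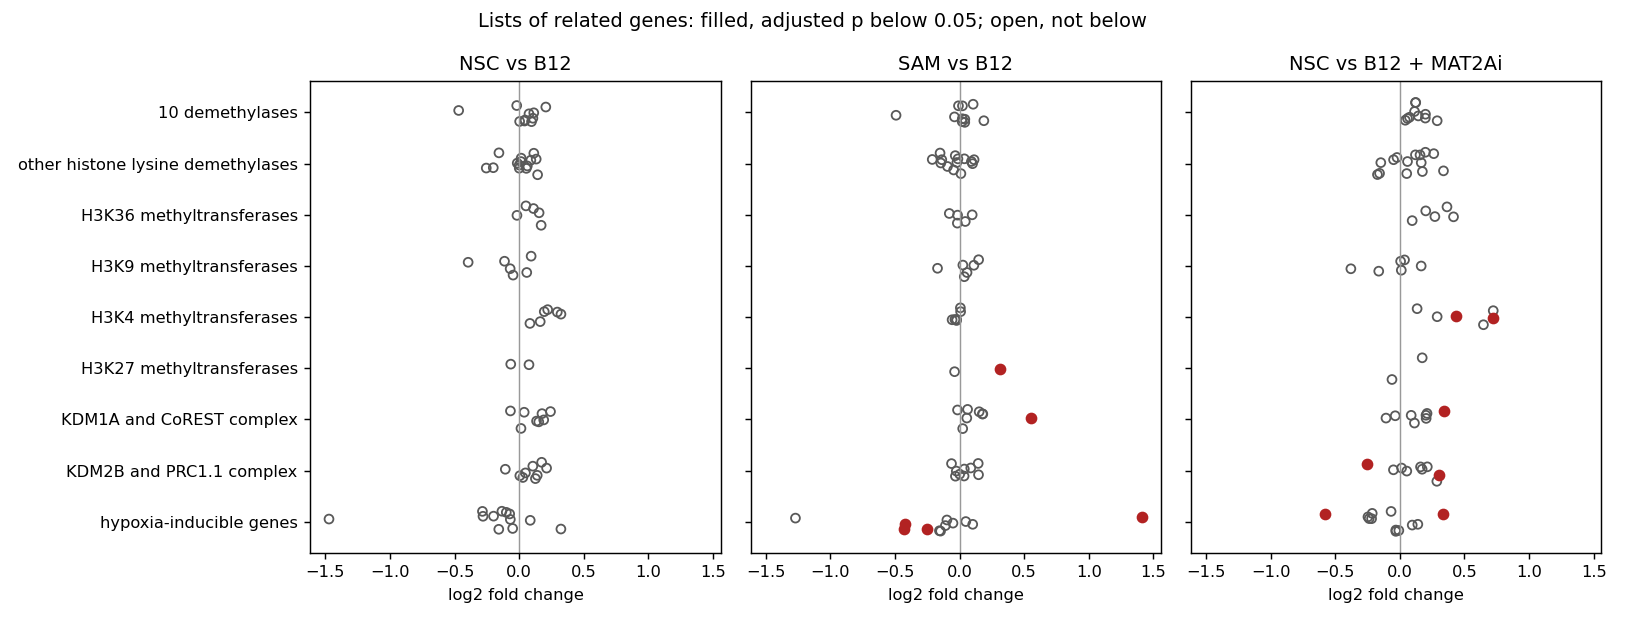
Log2 fold changes of the 10 demethylases and of 8 lists of related genes in NSC vs B12, SAM vs B12 and NSC vs B12 + MAT2Ai. Each circle is a gene, filled where the adjusted p was below 0.05, and vertical scatter within a row has no meaning. No filled circle stands in the row of the 10 demethylases, and Ezh2 (0.32) and Rcor2 (0.56) are filled in SAM vs B12.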

How the data were processed

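Polyadenylated RNA of 8 MEF cultures was sequenced from stranded libraries. The authors aligned reads to mm10 with STAR 2.5.2b, per the submitters' processing notes, and counted them per Ensembl gene by strand with featureCounts, summing technical replicates. The methods give single-end sequencing for these libraries but describe alignment and counting for paired-end reads, so the settings used here are uncertain. The deposited values are raw counts for 55487 genes. Symbols and exon lengths came from GENCODE M21 (GRCm38, the same genome), which held 55227 of the gene IDs, and sequences from GENCODE and RefSeq tables.

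Genes were kept by edgeR's filterByExpr (minimum count 10), which left 19392, and scaled by TMM. CPM uses these factors. Treatments were compared with edgeR 4.0.16 (R 4.3.3) by the quasi-likelihood test over all 8 libraries with MEF as a block, with Benjamini-Hochberg adjustment over all tested genes and a threshold of 0.05. SE is the log2 fold change divided by the square root of F, and intervals use 3 residual and 7.92 prior degrees of freedom. Each treatment had 2 libraries, each 1 culture. The p-values rest in part on how treatment differences varied between the 2 MEFs, with the mean difference between them removed. That spread was moderated towards the spread over all genes, which weighed more, with 7.92 prior against 3 residual degrees of freedom. The MEF number pairs libraries of the same embryo, and deviations from treatment means correlated at 0.42 to 0.56 between treatments of 1 MEF. No 2 libraries agreed within sampling noise (chi-square per gene at least 6.69). Within-MEF differences are of log2 CPM with a prior count of 2.

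All 10 members are named. Genes of other lists could be named where they passed in a comparison, where sex-linked, or where they are Setd2, Pou5f1 or Lyz2, and marker lists are given by sums and counts. The 3 genes most like Kdm4a and Kdm4b are named, except 1 that is not reported here. The members and lists were chosen with earlier results of these data known. Alternatives were other scaling factors, DESeq2 1.42.0, other filters, no MEF block, robust moderation, only the 4 libraries compared, and leaving out each library. The fits were tested on simulated data.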

Additional observations from a re-analysis of the deposited data

Results flagged for a closer look

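Kdm4d differed in direction between the 2 embryos in 3 of 60 pairs of within-MEF differences, with both sides above 0.1 on the log2 scale and with the difference itself not tested. For B12 + MAT2Ai minus B12 it was -1.09 in MEF 61.3 and 0.22 in MEF 61.5. For NSC minus B12 + MAT2Ai it was 0.73 in MEF 61.3 and -0.67 in MEF 61.5, and for SAM minus B12 + MAT2Ai it was 0.74 in MEF 61.3 and -0.73 in MEF 61.5. All 3 share the B12 + MAT2Ai libraries, in which Kdm4d had 6 reads in MEF 61.3 and 9 reads in MEF 61.5.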

How the results depend on the processing

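No member was called against B12, between NSC and SAM or between embryos under any of the alternatives run for those comparisons. Of 1093 member estimates under 16 alternatives, 1045 kept their sign, 48 changed it, none left the 95% interval of the value reported, and 8 passed the threshold. Those 8 were all Kdm6b against B12 + MAT2Ai. There the count of members called was 1 in place of 0 with no filter on low counts and with only the 4 libraries compared, for NSC (log2 fold changes 0.30 and 0.29) and for SAM (0.27 and 0.27), and 0 to 1 when single libraries were left out. Without the MEF pairing, as a fit with no replicate block, the genes called numbered 2 for NSC over B12, 0 for SAM over B12, 0 for B12 + MAT2Ai over B12, 1 for NSC over SAM, 1 for NSC over B12 + MAT2Ai and 0 for SAM over B12 + MAT2Ai, in place of 370, 1495, 17, 1847, 695 and 1584, and no member was among them. DESeq2 called 43 genes for B12 + MAT2Ai over B12, 1172 for NSC over SAM and 2402 between embryos (3636 by edgeR). With no filter the counts were 1025 for NSC over B12, 452 for B12 + MAT2Ai over B12, 2895 for NSC over SAM and 1873 for NSC over B12 + MAT2Ai. With only the 4 libraries compared they were 313, 3340 and 2020 for the last 3 of these comparisons. Leaving out single libraries gave 38 (without NSC of MEF 61.3) to 780 genes (without B12 of MEF 61.5) for NSC over B12, 898 to 1429 for SAM over B12, 1 to 373 for B12 + MAT2Ai over B12, 605 to 2717 for NSC over SAM, 42 to 1672 for NSC over B12 + MAT2Ai, 600 to 2168 for SAM over B12 + MAT2Ai and 2373 to 3820 between embryos. The cause of these shifts was not tested. Where a library was left out, the lone library of its treatment was assumed to vary like the others. DESeq2 gave no adjusted p for Kdm4d in any comparison but SAM over B12, and a prior count of 0.5 in place of 2 widened its within-MEF differences, for instance to -0.53 in NSC minus B12 of MEF 61.5 (-0.44 at 2) and to -1.25 in B12 + MAT2Ai minus B12 of MEF 61.3 (-1.09 at 2). Depth limits Kdm4d alone among the members, at 6 to 15 reads a library.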
